A study of Mus musculus and Sus scrofa with 30 samples.

Results

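The glycerol phosphate pathway builds triglyceride, the storage fat of adipocytes, by adding fatty acids to glycerol in successive steps. Glycerol-3-phosphate acyltransferases (GPATs) add the first fatty acid, 1-acylglycerol-3-phosphate acyltransferases (AGPATs) add the next and give phosphatidic acid, lipins remove its phosphate to give diacylglycerol, and diacylglycerol acyltransferases (DGATs) add the last fatty acid. Each step has several isozymes, encoded by separate genes, and AGPAT2 and lipin 1 are known for fat loss in people or mice that lack them. The genes described here are Gpam, Gpat3 and Gpat4 for the GPAT step, Agpat2 and Agpat3 for the AGPAT step, Lpin1, Lpin2 and Lpin3 for the lipin step, and Dgat1 and Dgat2 for the DGAT step. They were chosen by symbol, with earlier results of these data known, and none was left out for its values. They were found as 10 of 24843 genes in the mouse table and 9 of 34307 genes in the pig table, in which no row carries the symbol AGPAT2. All 19 passed the minimum used for testing, a mean of at least 10 normalized counts over the libraries of a table.

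Bulk RNA-seq was made from mouse 3T3-L1 cells, a fibroblast line from embryos that can turn into adipocytes, and from porcine dedifferentiated fat (DFAT) cells, which are cultured from subcutaneous fat and form adipocytes again when induced. In each system cells were collected at day 5 of induced differentiation in 5 groups of 3 libraries: DMSO (vehicle), dicoumarol (a coumarin anticoagulant), magnolol (a compound of magnolia bark), dicoumarol together with magnolol (the combination), and rosiglitazone (an agonist of PPARγ, the nuclear receptor that drives adipocyte formation). All 3T3-L1 groups, vehicle included, received insulin (0.75 µg/mL), dexamethasone (75 nM) and IBMX (37.5 µM) with 10% serum. All DFAT groups received dexamethasone (0.5 µM), IBMX (12.5 µM), biotin (20 µM) and pantothenate (10 µM) with 2% serum, and no insulin is listed for them. Neither compound doses nor the number of pigs behind the DFAT cells were stated in the labels. The labels do not say whether replicates were separate cultures, so the p-values measure only the spread between these libraries, which may be technical.

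Values are the authors' normalized counts, gene counts divided by a size factor of each library. Their sum ran from 26220207 to 28414446 in the 3T3-L1 libraries and from 56872181 to 69255637 in the DFAT libraries, and the read depth before scaling could not be recovered. All 10 adipocyte markers on the list were detected in every group of both systems, while the endothelial marker KDR was at 0 in every DFAT library and at most 1.99 in 3T3-L1, and PTPRC, the pan-leukocyte marker, was at most 0.981 in DFAT. CD14 (619 to 950 normalized counts) and PECAM1 (149 to 236) were well above 0 in DFAT, with the endothelial marker CDH5 at most 1.96. The summed adipocyte markers were higher in each group than in the one before it in the order given, from 46948 to 65781 in the 3T3-L1 vehicle libraries to 340720 to 592180 with rosiglitazone. In DFAT they went from 24610 to 26371 in vehicle to 87104 to 93930 with rosiglitazone. In bulk RNA, more adipocytes and more RNA per adipocyte cannot be told apart, and the part of either in the results on the acyltransferases and lipins was not tested.

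In 3T3-L1 cells, at least 1 isozyme of each of the 4 steps rose with the combination. Gpat3 rose 5.98-fold, Dgat2 5.52-fold, Agpat2 3.55-fold, Dgat1 2.51-fold and Lpin1 1.99-fold, with smaller rises of Gpam (1.41-fold) and Gpat4 (1.35-fold). Agpat3, Lpin2 and Lpin3 did not pass the test. With rosiglitazone the same 7 genes rose, led by Gpat3 (15.0-fold) and Agpat2 (10.8-fold), and Lpin2 fell to 0.827 of its vehicle level. With magnolol 5 of the 10 rose, and with dicoumarol none passed. These counts come from a fit that leaves out the replicate number. A fit with that number as a block, given below, called 7 with magnolol and 4 with dicoumarol, against 3.52% and 0.458% of all genes. A gene was called at an adjusted p under 0.05 in limma's moderated test, with Benjamini-Hochberg adjustment over all 15723 genes tested. The comparisons with vehicle share the same 3 vehicle libraries. Of those genes, 0.0% (dicoumarol), 1.07% (magnolol), 3.86% (combination) and 20.3% (rosiglitazone) were called higher, and 19.9% were called lower with rosiglitazone.

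**Figure D1:**
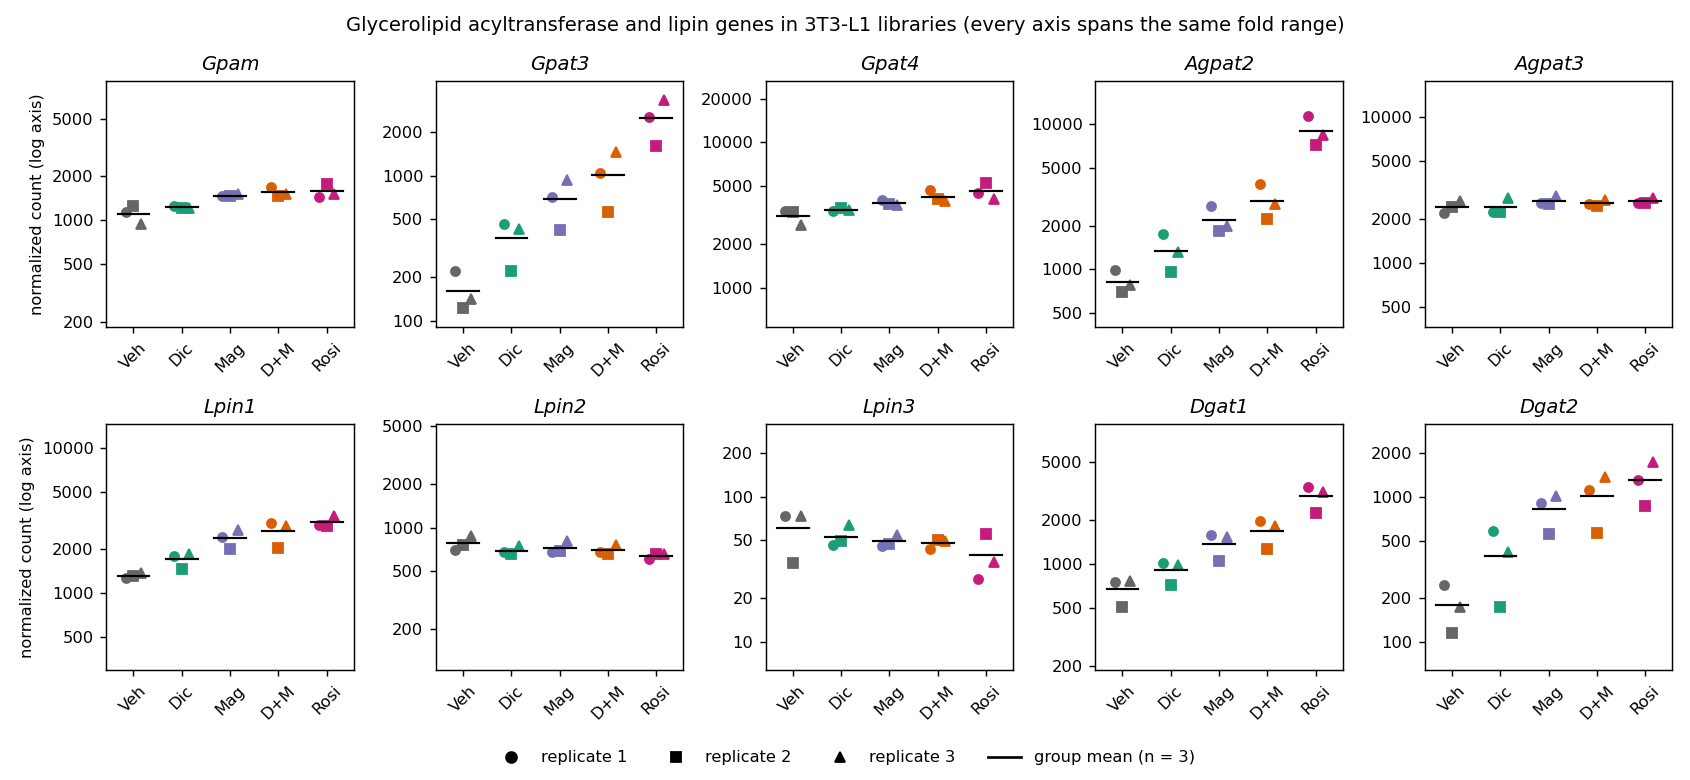
Normalized counts of the 10 genes in each 3T3-L1 library (log axes that span the same fold range), by group: Veh vehicle, Dic dicoumarol, Mag magnolol, D+M the combination, Rosi rosiglitazone. Marker shapes give the replicate number and bars the mean of 3 libraries; Gpat3, Agpat2, Dgat1 and Dgat2 climb across the groups with replicate 2 lowest in 5 of 5 groups, while Agpat3 stays between 2214 and 2899.5.

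Gpat3 encodes a GPAT of the endoplasmic reticulum that is induced when fat cells form. Its normalized counts were 220.1, 123 and 143 in the vehicle libraries (replicates 1, 2 and 3), and 463, 222 and 427 with dicoumarol. They were 715, 423 and 926 with magnolol, 1039, 558 and 1450.3 with the combination, and 2518.5, 1599 and 3293 with rosiglitazone. Every treated library lay above every vehicle library, and within each group replicate 2 was the lowest. The log2 fold change was 2.05 with magnolol (SE 0.38, adjusted p = 0.014, limma), 2.58 with the combination (adjusted p = 0.0011) and 3.90 with rosiglitazone (adjusted p = 1.6e-06). Gpam, the mitochondrial GPAT, moved far less, from 939 to 1249 in vehicle to 1476 to 1692 with the combination, a log2 change of 0.50 (SE 0.11, adjusted p = 0.011, limma). Gpat4, the other GPAT of the endoplasmic reticulum, went from 2707 to 3400.1 in vehicle to 3952 to 4685.5 with the combination, a log2 change of 0.44 (adjusted p = 0.024, limma). The calls of Gpam and Gpat4 with the combination were both lost without vehicle replicate 3 or without combination replicate 1, and that of Gpat4 also without the variance trend or with only the groups compared. Those fits leave out the replicate number. With it as a block the adjusted p for the combination was 0.0020 for Gpam and 0.0021 for Gpat4 (limma). With rosiglitazone Gpam rose by 0.51 and Gpat4 by 0.56, and both calls held in all 6 fits that left out 1 library.

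Agpat2 encodes the AGPAT whose loss causes congenital generalized lipodystrophy. Its normalized counts were 991, 698 and 778 in vehicle, 1757, 958 and 1318 with dicoumarol, and 2704, 1833 and 1985 with magnolol. They reached 3865, 2212 and 2828 with the combination and 11276, 7124 and 8381 with rosiglitazone. The magnolol, combination and rosiglitazone libraries all lay above vehicle, whereas dicoumarol replicate 2 lay within the vehicle range. The log2 fold changes were 1.40 (magnolol, adjusted p = 0.01), 1.83 (combination, adjusted p = 0.00067) and 3.43 (rosiglitazone, adjusted p = 1.3e-07) by limma, each with an SE of 0.24. Agpat3, its relative that also makes phosphatidic acid for membranes, differed from vehicle by −0.01 to 0.13 on the log2 scale, and its 95% interval with the combination ran from 0.908-fold to 1.22-fold.

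Lpin1 encodes the lipin that predominates in fat and muscle. Its normalized counts were 1265, 1308 and 1386 in vehicle, 1794, 1477 and 1871 with dicoumarol, and 2436, 2011 and 2721.5 with magnolol. They were 3045, 2048 and 2912 with the combination and 2943, 2896 and 3389 with rosiglitazone. All treated libraries, dicoumarol included, lay above all vehicle libraries. The log2 fold changes were 0.85 with magnolol (SE 0.14, adjusted p = 0.01, limma), 0.99 with the combination and 1.22 with rosiglitazone. Lpin2, the lipin known for its part in liver and in bone inflammation, went the other way with rosiglitazone, from 707, 757 and 879 in vehicle to 611, 655 and 664, a fall by 0.27 (SE 0.10, adjusted p = 0.044, limma). That call was lost in 5 of 6 fits that left out 1 library (it held without vehicle replicate 1), and also with no filter, with no variance trend and with only the groups compared. Those fits leave out the replicate number. With it as a block the adjusted p of Lpin2 was 0.0048 (limma). Lpin3 was the lowest of the 10, between 27.3 and 73.9 normalized counts, and its intervals were wide (−1.20 to 0.02 with rosiglitazone).

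Dgat1 encodes the DGAT that esterifies fatty acids taken up or recycled in the endoplasmic reticulum. Its normalized counts were 750.03, 503 and 760.2 in vehicle, 1570.3, 1046 and 1522 with magnolol, and 1967, 1265 and 1825.5 with the combination. With rosiglitazone they were 3363, 2255 and 3138. None of these 9 treated libraries overlapped vehicle. The log2 fold changes were 1.04 with magnolol (SE 0.22, adjusted p = 0.028, limma), 1.33 with the combination and 2.12 with rosiglitazone.

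Dgat2 encodes an unrelated enzyme with the same activity, linked to newly made fatty acids and found at lipid droplets. Its normalized counts were 248, 116 and 174 in vehicle, 580.4, 175 and 415 with dicoumarol, and 901, 557 and 1007 with magnolol. They were 1107, 564 and 1372 with the combination and 1300.0, 859 and 1734 with rosiglitazone. Magnolol, the combination and rosiglitazone stood clear of vehicle, while dicoumarol replicate 2 fell inside the vehicle range. The log2 fold changes were 2.21 (magnolol, SE 0.42, adjusted p = 0.016), 2.46 (combination, adjusted p = 0.0025) and 2.86 (rosiglitazone, adjusted p = 6.7e-05) by limma.

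The 3T3-L1 libraries with the same replicate number deviated together, and a fit with that number as a block changed several calls. With dicoumarol no gene of the 10 was called without the block (smallest adjusted p 0.99984, limma), although 4 had an unadjusted p under 0.05, as did 393 of the 15723 genes. With the block, 4 were called: Gpat3 (log2 fold change 1.16, adjusted p = 0.0035), Dgat2 (1.02, adjusted p = 0.013), Agpat2 (0.68, adjusted p = 0.00031) and Dgat1 (0.44, adjusted p = 0.0023), against 0.458% of all genes called higher in that fit and none of the 15723 without the block. With magnolol the block added Gpam (0.42, adjusted p = 0.015 against 0.071 without) and Gpat4 (0.30, adjusted p = 0.0497 against 0.28 without), which made 7, against 3.52% of all genes. The magnolol calls were the least stable of the 3: without magnolol replicate 1 none of the 5 remained, without magnolol replicate 3 or vehicle replicate 2 there was 1, and without vehicle replicate 3 there were 2. Without the variance trend Agpat2 and Lpin1 kept their magnolol calls and the other 3 lost them. Those refits leave out the block. With it the adjusted p of the same 5 genes ran from 1.9e-08 (Agpat2) to 3.7e-05 (Lpin1) in limma.

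**Figure D2:**
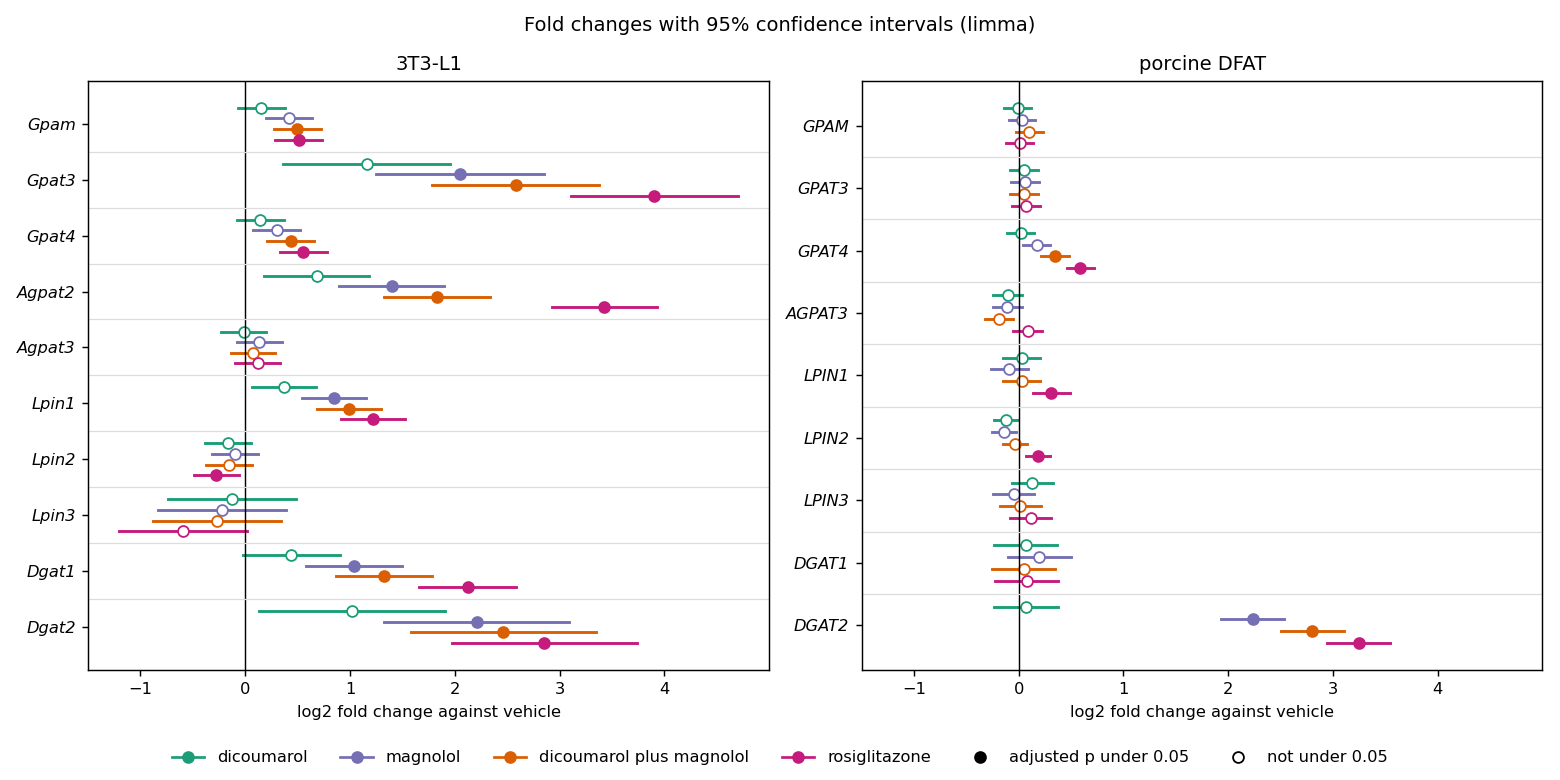
Log2 fold changes against vehicle with 95% confidence intervals from limma for the 10 genes in 3T3-L1 and the 9 in DFAT; filled points had an adjusted p under 0.05 and open points did not. In 3T3-L1 Gpat3, Agpat2, Dgat1 and Dgat2 stand to the right in order of treatment, and in DFAT Dgat2 alone exceeds a change of 1 (2.23 with magnolol to 3.24 with rosiglitazone).

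Between treatments, Agpat2 was 3.03-fold higher with rosiglitazone than with the combination (log2 1.60, SE 0.24, adjusted p = 0.00093, limma), Gpat3 2.50-fold (adjusted p = 0.024) and Dgat1 1.74-fold (adjusted p = 0.02), against 9.53% of all genes called higher. The Gpat3 and Dgat1 calls were lost in 4 and 3 of 6 fits that left out 1 library: both without rosiglitazone replicate 1, rosiglitazone replicate 3 or combination replicate 2, and Gpat3 also without combination replicate 1 or without the variance trend. Those fits leave out the block. With it the adjusted p was 4.7e-05 for Gpat3 and 6.3e-07 for Dgat1 (limma). Dgat2 differed by 0.39 with an interval of −0.49 to 1.27 (0.01 to 0.77 with the block), and Lpin1 by 0.22 (−0.08 to 0.53, and 0.02 to 0.42 with the block), and neither was called with or without the block. Combination against magnolol gave no call in limma with or without the block, for the 10 or for any of the 15723 genes. Without the block 0 of the 10 had an unadjusted p under 0.05 (336 of the 15723 genes did). With the block the number over all genes is not given, so the count of members cannot be set against it. That count was 3 of the 10, all higher with the combination. These were Agpat2 (0.43, interval −0.07 to 0.93 without the block and 0.27 to 0.59 with it, adjusted p = 0.12 with it), Dgat1 (0.29, 0.16 to 0.42 with it) and Gpat3 (0.53, 0.17 to 0.89 with it). Combination against dicoumarol gave none of the 10 without the block, with 0.0254% of all genes called higher. At an unadjusted p under 0.05 there were 7 of the 10 and 1273 of the 15723 genes. With the block 5 were called: Dgat2 (1.44), Gpat3 (1.42), Agpat2 (1.15), Dgat1 (0.89) and Lpin1 (0.62), against 2.49% of all genes. Magnolol against dicoumarol likewise gave 0 without the block (6 at an unadjusted p under 0.05, beside 693 of the 15723 genes). With the block it gave the same 5 genes, from 0.48 for Lpin1 to 1.19 for Dgat2, against 0.42% of all genes.
The departure of the combination from the sum of the log2 changes of both compounds was not called for any of the 10 in limma, with or without the block, nor for any of the 15723 genes. Without the block 0 of the 10 had an unadjusted p under 0.05 (78 of the 15723 genes did). With the block the number over all genes is again not given, so the count of 3 of the 10 cannot be set against it. The 3 were Dgat2 (−0.77, interval −2.01 to 0.48 without the block and −1.30 to −0.23 with it), Gpat3 (−0.63, −1.76 to 0.50 and −1.14 to −0.12) and Agpat2 (−0.25, −0.96 to 0.46 and −0.48 to −0.02). Within the sets of libraries that share a replicate number, the departure was below 0 in all 3 sets for Dgat2 (−0.93, −0.57 and −0.80), Gpat3 (−0.53, −0.44 and −0.92), Agpat2 (−0.31, −0.18 and −0.25), Dgat1 and Lpin1. For Lpin2 it was above 0 in all 3 (0.050, 0.13 and 0.15), and for the rest the sign was mixed. The share of all genes with 1 sign in all 3 sets is not given, so these signs are not read as a result.

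The isozymes of a step could be set against each other in mouse, where the counts were divided by the length of each gene's merged exons (GENCODE M21). The annotation behind the counts is not stated, and merged exons need not be the transcripts expressed. Shares between genes are therefore approximate, and their change between groups is the firmer reading. At the GPAT step the summed level per kilobase of exon rose from 682.5 ± 83.9 (SD, n = 3) in vehicle to 1633 ± 137 with rosiglitazone. Gpat4 held 68.8% ± 0.345 of that sum in vehicle and 42.8% ± 8.87 with rosiglitazone (SD, n = 3). Gpat3 went from 6.77% ± 1.78 to 24.5% ± 8.76 with the combination and 42.6% ± 11.4 with rosiglitazone, so that Gpat3 and Gpat4 then had like shares. At the AGPAT step, counting Agpat2 and Agpat3 alone, Agpat2 went from 55.0% ± 6.15 to 80.3% ± 4.17 with the combination and 92.3% ± 1.64 with rosiglitazone. At the lipin step Lpin1 went from 63.1% ± 2.26 to 79.4% ± 3.33 and 83.4% ± 1.73, and Lpin3 stayed under 10% in every library.
At the DGAT step Dgat2 had the smaller share by these lengths: 20.6% ± 3.51 for vehicle, 36.8% ± 2.57 for magnolol, 36.4% ± 6.04 for the combination and 30.2% ± 4.52 for rosiglitazone. The shares named for the combination and rosiglitazone did not overlap vehicle, for which an exact two-sided permutation test of 3 against 3 gives p = 0.1, the smallest it can give.

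**Figure D3:**
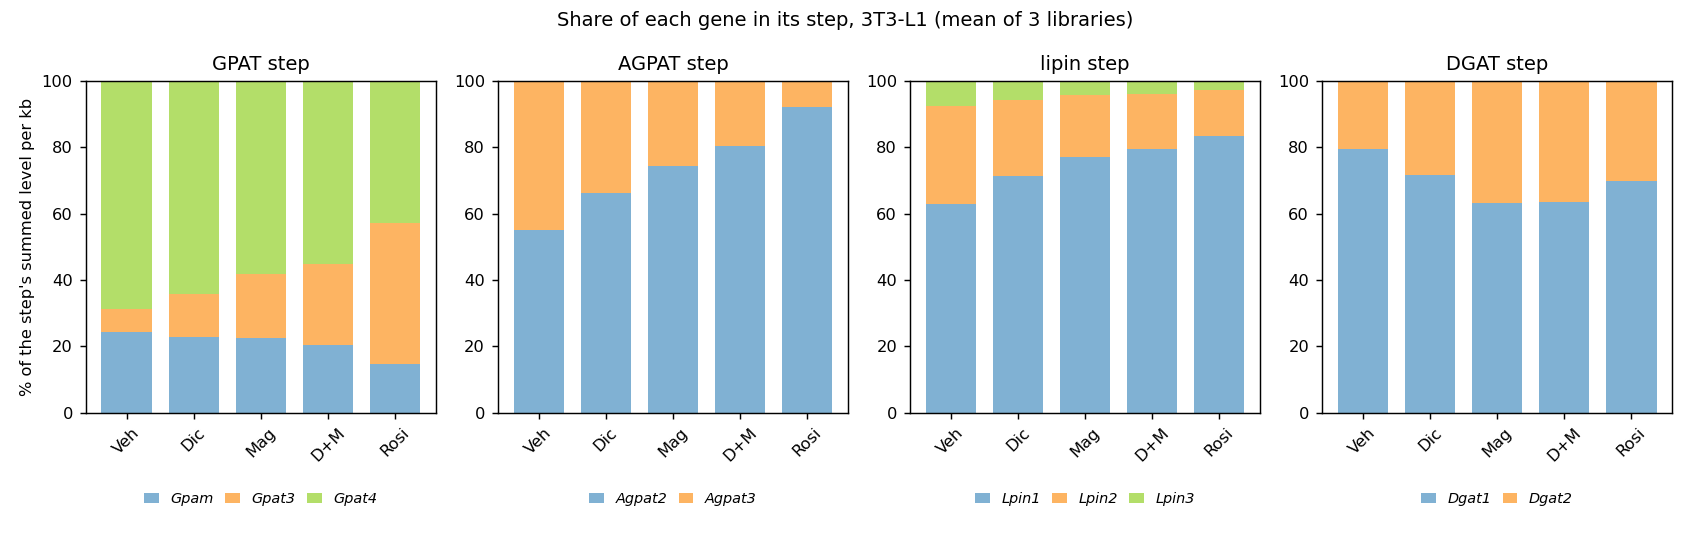
Share (%) of each isozyme in the summed normalized count per kilobase of exon of the genes described for its step in 3T3-L1, mean of 3 libraries per group, groups as Veh, Dic, Mag, D+M and Rosi. The AGPAT bars count Agpat2 and Agpat3 alone. Bars are stacked to 100%; Agpat2 fills 55.0% of its bar in vehicle and 92.3% with rosiglitazone, and Gpat3 6.77% and 42.6%.

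Upstream sequence is shown for Agpat2 and Lpin1, which rose with magnolol, the combination and rosiglitazone, and for Gpam, which rose less. RefSeq start sites (GRCm38.p6) were at hand for 7 of the 10 genes, and Gpat4, Dgat1 and Dgat2 had no entry. The windows are the 250 bases before a start site, 5′ to 3′ on the gene's strand, and those of Gpat3 and Agpat3 overlap annotated exons and are not printed. Windows of Lpin2 and Lpin3, which did not rise, were at hand too and are not printed. A Lpin2 window holds a GC box at −24 to −19, so that motif is not particular to the genes that rose. The motifs searched, on both strands, were the PPAR-type direct repeat AGGTCANAGGTCA (in 0.0335% of 32851 mouse promoter windows of this length), the single site AGGTCA (14.0%), the C/EBP palindrome TTGCGCAA (0.164%), the E-box CACGTG (6.02%), the CCAAT box (33.8%) and the GC box GGGCGG (32.7%). The single site lies inside the direct repeat. Capitals mark matches.
Agpat2 (chr2:26604418-26604667, minus strand): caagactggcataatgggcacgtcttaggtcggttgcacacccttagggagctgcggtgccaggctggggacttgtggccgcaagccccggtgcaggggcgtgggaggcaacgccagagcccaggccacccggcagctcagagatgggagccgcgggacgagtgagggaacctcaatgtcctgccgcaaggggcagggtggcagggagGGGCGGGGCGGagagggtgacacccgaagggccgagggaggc
Lpin1 (chr12:16610967-16611216, minus strand): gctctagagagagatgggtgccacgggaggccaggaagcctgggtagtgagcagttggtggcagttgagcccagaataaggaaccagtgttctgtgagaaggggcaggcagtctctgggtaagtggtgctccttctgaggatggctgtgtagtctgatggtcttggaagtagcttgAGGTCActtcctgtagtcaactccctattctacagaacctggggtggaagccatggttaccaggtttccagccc
Gpam (chr19:55127239-55127488, minus strand): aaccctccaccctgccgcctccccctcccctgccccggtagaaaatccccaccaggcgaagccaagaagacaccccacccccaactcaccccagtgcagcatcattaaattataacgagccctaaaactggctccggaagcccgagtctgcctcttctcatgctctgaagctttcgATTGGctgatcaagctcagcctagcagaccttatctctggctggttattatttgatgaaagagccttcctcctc
The Agpat2 window holds a pair of GC boxes that share a base, at −42 to −37 and −37 to −32 counted from −1, the base before the start site. The Lpin1 window holds 1 single site (AGGTCA) at −74 to −69, and the Gpam window holds the CCAAT box on the other strand at −74 to −70. RefSeq lists a second start site for Gpam, whose window overlaps an annotated exon of AC110206.1 and is not printed; it holds AGGTCA at −196 to −191 and a GC box on the other strand at −16 to −11. No direct repeat or C/EBP palindrome was found in the windows of the 7 genes, which says only that these letters are not there. The deposited table lists Agpat2 (ENSMUSG00000026922) at chromosome 2, 26483069 to 26494429, on coordinates that differ from GRCm38 and have no build named. The same listing has Lpin1 on the minus strand up to 16696967. Whether the Lpin1 start site used here lies inside the gene was not tested.

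In DFAT cells the change centred on 1 gene. DGAT2 rose 4.70-fold with magnolol, 6.98-fold with the combination and 9.48-fold with rosiglitazone. GPAT4 rose 1.27-fold with the combination and 1.50-fold with rosiglitazone, and LPIN1 (1.24-fold) and LPIN2 (1.13-fold) rose with rosiglitazone. GPAM, GPAT3, AGPAT3, LPIN3 and DGAT1 were not called against vehicle with any treatment. The counts of higher members were 0, 1, 2 and 4 of 9 for dicoumarol, magnolol, the combination and rosiglitazone, against 0.911%, 2.96%, 6.11% and 5.8% of the 14819 genes tested. With dicoumarol, 1 of the 9 members (LPIN2, −0.12) had an unadjusted p under 0.05 in limma, as did 1504 of the 14819 genes.

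**Figure D4:**
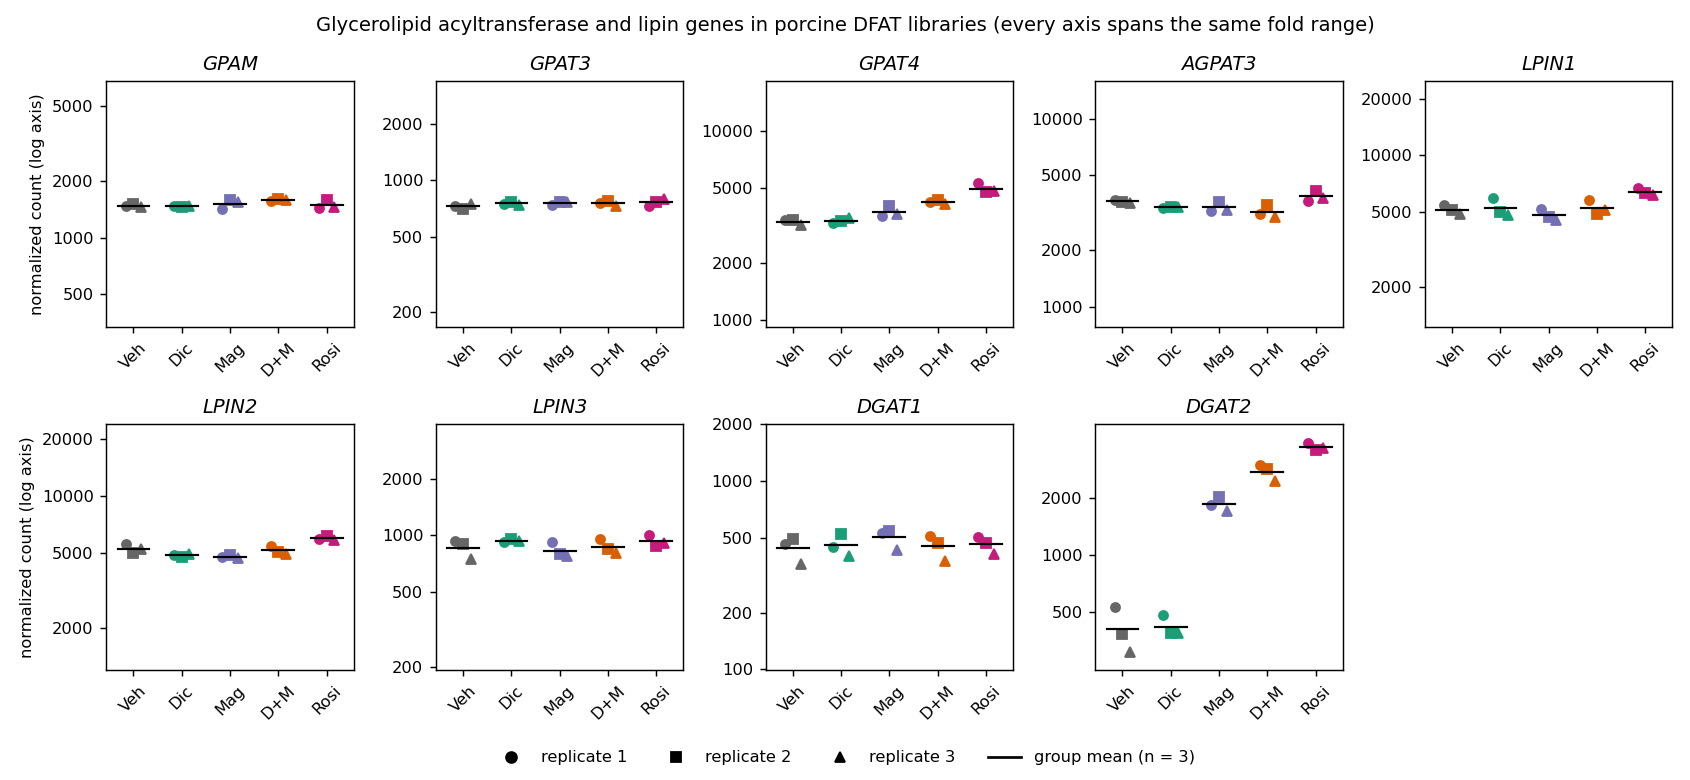
Normalized counts of the 9 genes in each DFAT library (log axes that span the same fold range), groups and markers as in the plot of the 3T3-L1 libraries, bars for the mean of 3. DGAT2 stands at 308 to 528 in vehicle and 384 to 481 with dicoumarol, and at 1717 to 3931 in the other groups, and GPAT4 climbs less steeply, within 3169.9 to 5338.

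DGAT2 (ENSSSCG00000034102, listed at chromosome 9, 10032128 to 10068437) had normalized counts of 528, 380.1 and 308 in vehicle and 481, 385 and 384 with dicoumarol. They were 1839, 2043 and 1717 with magnolol, 2992, 2867 and 2464 with the combination, and 3931, 3621 and 3716 with rosiglitazone. Dicoumarol lay within the vehicle range, and magnolol, the combination and rosiglitazone formed 3 separate bands above it. The log2 fold changes were 0.07 with dicoumarol (SE 0.14, adjusted p = 0.93), 2.23 with magnolol (adjusted p = 2e-08), 2.80 with the combination (adjusted p = 4.6e-10) and 3.24 with rosiglitazone (adjusted p = 4e-11) by limma. The interval of the dicoumarol change ran from 0.85-fold to 1.29-fold.
Magnolol exceeded dicoumarol by 2.16 and the combination exceeded it by 2.73 (both called, against 1.26% and 2.0% of all genes). The combination exceeded magnolol by 0.57, 1.49-fold, with an adjusted p of 0.10 in limma and of 0.0074 in limma with the replicate block. The numbers pair the libraries of these groups. The block was fitted over all 5 DFAT groups, though. Vehicle and dicoumarol missed the cut-off for pairing with the rest, given below, so the blocked p is to be read with care. Of all genes, 0.385% were called higher without the block and 1.02% with it. Rosiglitazone exceeded the combination by 0.44 (adjusted p = 0.044, limma), a call lost in all 6 fits that left out 1 library, and also with no filter, no variance trend or quantile normalization. The departure of the combination from the sum of both compounds was 0.50 for DGAT2 (interval 0.07 to 0.93) and 0.23 for LPIN2. Each had an unadjusted p under 0.05 in limma, as did 582 of the 14819 genes, and 0 of 9 were called after adjustment (0.081% of all genes).

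GPAT4 had normalized counts of 3366.5, 3397 and 3169.9 in vehicle and 3271, 3327 and 3454 with dicoumarol. They were 3539, 4030.4 and 3628 with magnolol, 4206, 4319 and 4112.5 with the combination, and 5338, 4765 and 4829.5 with rosiglitazone. Dicoumarol overlapped vehicle, and the other 3 groups lay above it in rising bands. The log2 change was 0.17 with magnolol (SE 0.06, adjusted p = 0.15), 0.35 with the combination (adjusted p = 0.0011) and 0.59 with rosiglitazone (adjusted p = 3.6e-06) by limma.
LPIN1 and LPIN2 rose only slightly with rosiglitazone. LPIN1 went from 5463, 5090.1 and 4853 to 6677, 6304 and 6130.1, a log2 change of 0.31 (adjusted p = 0.021), and LPIN2 from 5529, 4999 and 5238 to 5902, 6124 and 5825.5, a log2 change of 0.18 (adjusted p = 0.042, limma). Both calls were lost without rosiglitazone replicate 1, vehicle replicate 2 or vehicle replicate 3, and that of LPIN2 also without rosiglitazone replicate 2 or 3. Neither call held without the variance trend, LPIN1 also lost it with no filter, and LPIN2 with only the groups compared. Against the combination, rosiglitazone was higher for 5 of 9 members (DGAT2 0.44, LPIN1 0.28, AGPAT3 0.27, GPAT4 0.24, LPIN2 0.21), against 8.24% of all genes. Of these, LPIN1 was lost without rosiglitazone replicate 1, combination replicate 2 or combination replicate 3, GPAT4 without rosiglitazone replicate 1 and LPIN2 without combination replicate 3. With only those 2 groups in the fit, DGAT2 alone of the 5 was called.

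The level members were measured closely. GPAT3 lay between 702 and 794 in all 15 DFAT libraries, and its interval with rosiglitazone, 0.955-fold to 1.15-fold, is far from the 8.61-fold to 26.0-fold of mouse Gpat3. GPAM lay between 1409 and 1607 and LPIN3 between 746 and 1002. DGAT1 lay between 364 and 545, with an interval of 0.857-fold to 1.30-fold with rosiglitazone. DGAT1 overlaps HSF1, a heat shock factor gene on the opposite strand with a mean of 1528 normalized counts against 463 for DGAT1, and since counting by strand is not stated, reads of both may be mixed in its value. In mouse the overlapping genes were low beside the members (Egfl7 at 41.3 beside Agpat2 at 3247, and 4930458D05Rik at 27.9 beside Gpat3 at 941).

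Fold changes were compared between the systems for 9371 genes with the same symbol, as the difference of the limma changes with adjustment over those genes for each treatment. Gpat3 rose more in 3T3-L1 by 1.99 (magnolol), 2.53 (combination) and 3.84 (rosiglitazone), and Lpin1 by 0.94, 0.96 and 0.91 (all called, adjusted p = 0.0077 or lower). Dgat1 rose more in 3T3-L1 with the combination (1.28, adjusted p = 0.0014) and rosiglitazone (2.05), as did Gpam (0.39 and 0.50, adjusted p = 0.033 and 0.0019). Lpin2 moved in opposite directions with rosiglitazone, a difference of −0.45 (adjusted p = 0.0033). The calls on these 9 shared members were 2, 4 and 5 for magnolol, the combination and rosiglitazone, against 3.23%, 11.7% and 38.8% of the shared genes. With dicoumarol none was called (smallest adjusted p 0.614 for Gpat3), against 0.149%.
Dgat2 was not called with any treatment: the difference was −0.02 with magnolol (interval −0.94 to 0.90), −0.34 with the combination (−1.26 to 0.58) and −0.39 with rosiglitazone (−1.31 to 0.53). With dicoumarol Dgat2 changed by 1.02 in 3T3-L1 and 0.07 in DFAT, a difference of 0.95 (0.03 to 1.87). All these differences use the fits without the block. Gpat4 differed by 0.09 with the combination (−0.16 to 0.34). The systems differ in species, medium and serum as well as cell type, which cannot be told apart.

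Ratios within a library, which do not depend on its size factor, gave the balance of isozymes in both systems. In 3T3-L1 the log2 ratio of Lpin1 to Lpin2 was 0.76 ± 0.094 (SD, n = 3) for vehicle and 1.30 ± 0.12 for dicoumarol. It was 1.71 ± 0.15 for magnolol, 1.91 ± 0.27 for the combination and 2.25 ± 0.10 for rosiglitazone. No treated library overlapped vehicle, and each exact two-sided permutation p was 0.1, the smallest for 3 against 3. In DFAT the same ratio lay between −0.03 and 0.11 in group means, and rosiglitazone alone had no overlap with vehicle (0.13 higher, exact permutation p = 0.1). The Dgat2 to Dgat1 ratio in DFAT was −0.14 ± 0.29 for vehicle and −0.14 ± 0.28 for dicoumarol. It was 1.89 ± 0.10 for magnolol, 2.61 ± 0.080 for the combination and 3.03 ± 0.13 for rosiglitazone, and only the last 3 lay clear of vehicle.
In 3T3-L1 that ratio rose by 1.17 with magnolol and 1.14 with the combination but by 0.73 with rosiglitazone. The Gpam to Gpat4 ratio differed from vehicle by at most 0.12 in 3T3-L1 means and in DFAT fell by 0.14 with magnolol, by 0.24 with the combination and by 0.58 with rosiglitazone (each without overlap with vehicle, exact permutation p = 0.1).

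**Figure D5:**
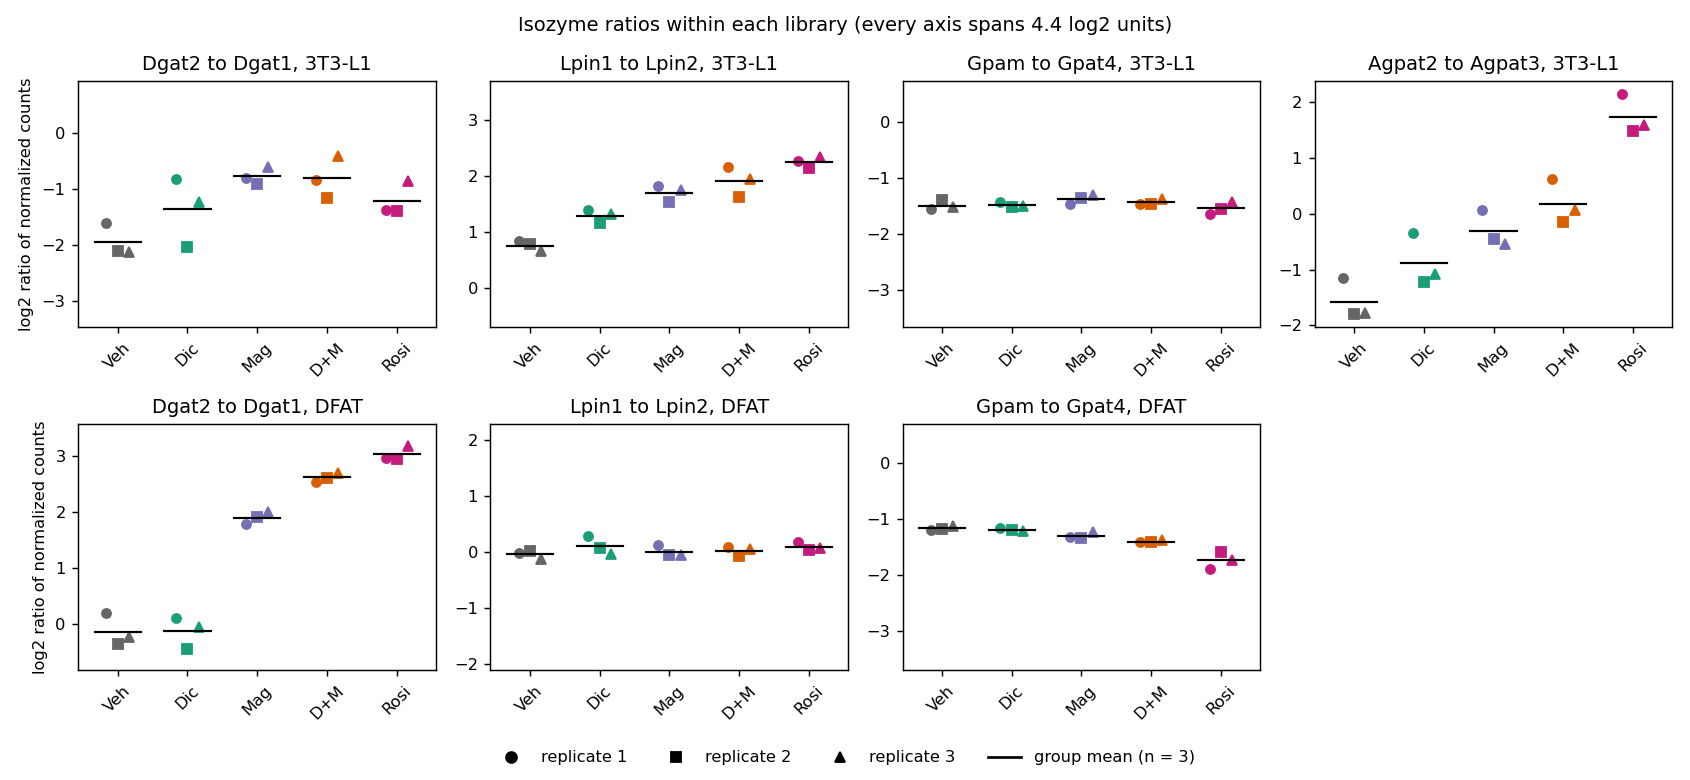
Log2 ratios of normalized counts of paired isozymes in each library, 3T3-L1 above and DFAT below, with every axis spanning 4.4 log2 units, bars for the mean of 3 and groups as Veh, Dic, Mag, D+M and Rosi. Lpin1 to Lpin2 climbs in 3T3-L1 (0.76 to 2.25) and is level in DFAT, and Dgat2 to Dgat1 climbs in DFAT (−0.14 to 3.03).

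Of 23 other genes that feed or assist triglyceride synthesis, 19 were tested in mouse and 20 in pig. In 3T3-L1, 2 rose with magnolol and with the combination, Acsl1 (the fatty acid activating enzyme of adipocytes, 2.59 with the combination) and Gpd1 (which makes glycerol-3-phosphate, 2.94). That is 10.5% of those tested, beside 1.07% and 3.86% of all genes. With rosiglitazone 7 rose and 2 fell, which is 36.8% and 10.5% of those tested, beside 20.3% and 19.9% of all genes. Acsl1 gained 4.12, Gpd1 4.50 and Gk (glycerol kinase) 1.08, while Plpp3 (a lipid phosphate phosphatase) fell by 0.54 and Acsl4 by 0.58. The list's median log2 change with rosiglitazone was 0.13, beside −0.0015 for all genes. In DFAT, 1 rose and 1 fell with magnolol, 2 rose and 1 fell with the combination, and 3 rose and 2 fell with rosiglitazone. Of all 14819 genes, 2.96%, 6.11% and 5.8% were called higher with these treatments, and 188, 602 and 744 genes lower. ACSL1 gained 0.32, 0.81 and 1.12 in that order, GK gained 0.39 with the combination and 1.41 with rosiglitazone, and PLPP3 fell by 0.30, 0.50 and 0.68. ACSL4 gained 0.25 and PLPP1 fell by 0.24 with rosiglitazone. With dicoumarol 0 of the list were called in either system, where 0.0% (3T3-L1) and 0.911% (DFAT) of all genes were called higher.
Of 26 genes of the phospholipid branch, which uses the same intermediates for membrane lipids, 22 were tested in mouse and 20 in pig. In 3T3-L1, 1 rose with the combination (Dgkd, a diacylglycerol kinase, 0.39), which is 4.55% of those tested beside 3.86% of all genes. With rosiglitazone 7 rose and 3 fell, which is 31.8% and 13.6% of those tested beside 20.3% and 19.9% of all genes. Pemt and Pcyt2 (enzymes of phosphatidylcholine and phosphatidylethanolamine synthesis) gained 1.20 and 0.82 and Crls1 (cardiolipin synthase) gained 0.64. Pcyt1b (which activates choline for phosphatidylcholine) fell by 1.08 and Cds2 (which diverts phosphatidic acid to other phospholipids) fell by 0.66. In DFAT, DGKH gained 0.33 with the combination, where CRLS1 fell by 0.30 and ETNK1 by 0.23, and DGKD gained 0.27 with rosiglitazone.

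The adipocyte markers moved with the members in 3T3-L1 and less evenly in DFAT. In 3T3-L1, 0, 7, 10 and 10 of 10 were called higher with dicoumarol, magnolol, the combination and rosiglitazone, without the block. Of all genes, 0.0%, 1.07%, 3.86% and 20.3% were called higher. The markers' median log2 change with dicoumarol was 1.17 in 3T3-L1 and 0.81 in DFAT, so the count of 0 in 3T3-L1 is not evidence that they stayed level. In DFAT 6, 8, 9 and 10 rose, against 0.911%, 2.96%, 6.11% and 5.8% of all genes. With dicoumarol in DFAT, ADIPOQ (adiponectin) gained 3.39, PLIN1 (a lipid droplet coat protein) 2.15 and CD36 (a fatty acid transporter) 0.99 (adjusted p = 1.6e-05 or lower, limma) beside the DGAT2 change of 0.07. LIPE, CIDEC and FABP4 were also called higher. CEBPA changed by −0.32, PPARG by 0.13, PNPLA2 by 0.10 and LPL by 0.09, none of them called, so DGAT2 was not alone in staying near vehicle. The part of the markers in the results was not tested. Among preadipocyte and fibroblast markers 2 of 10 fell with the combination and 8 with rosiglitazone in 3T3-L1, beside 214 and 3122 of the 15723 genes. In DFAT 3 of 7 tested rose with magnolol and with the combination and 3 fell with each treatment, and 1 rose with dicoumarol. Of the 14819 genes, 153, 188, 602 and 744 were called lower with dicoumarol, magnolol, the combination and rosiglitazone. Of the skeletal muscle markers, 2 of 2 tested rose in DFAT with the combination (6.11% of all genes did), at most 162 normalized counts for ACTA1 and 155 for DES, with MYOD1 at most 2.01. The tested macrophage, endothelial and keratinocyte markers gave no call apart from Cd14, which fell in 3T3-L1 with rosiglitazone by 1.32.

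The genes whose group means followed a member most closely were listed by the root mean square difference over the 5 group means, each centred on its own mean, among genes with a symbol and a mean of at least 100. In 3T3-L1 (11569 genes) those nearest Agpat2 were Noct (difference 0.049), Cacng4 (0.070) and Ppargc1b (0.11), and those nearest Dgat2 were Mcam (0.20), Kcnk3 (0.23) and Prlr (0.25). In DFAT (9923 genes) those nearest DGAT2 were THRSP (0.24), CD36 (0.35) and FABP3 (0.39), and THRSP gained 0.72, 2.78, 3.41 and 3.62 with dicoumarol, magnolol, the combination and rosiglitazone. For Gpam, which moved little, the nearest were Tbc1d16, Gm5487 and Epb41l1 (0.023 to 0.027) in mouse and TIGD7, SON and THOC2 (0.0044 to 0.0091) in pig, differences smaller than the standard errors of its fold changes.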

How the data were processed

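The deposited signal values are gene counts that the authors divided by DESeq2 size factors, with mouse and pig in separate tables, as the table names in the labels say. STAR, DESeq2, bcl2fastq 2.19.1.403 and GRCm38 are named in the submitters' processing notes, for pig libraries too; which counter and annotation were used is not stated there. Libraries keep strand by dUTP, per the labels' protocols. Of values above 0, 1.11% to 1.43% per library lay under 0.5, so whole reads were not recovered and the read depth is unknown. Genes with a mean of at least 10 were fitted with limma 3.58.1 (R 4.3.3) on log2(value + 1), which understates changes of low genes, with all 5 groups of a table in 1 model, a variance trend and two-sided tests. Exact permutation tests used scipy 1.17.1. The fit was tested on simulated data with independent normal noise, where only the combination group was changed. No deviation shared by replicate number was simulated, so the rates need not hold for the real libraries. Of 200 changed genes, 67.5% (3T3-L1, 15580 genes) and 81% (DFAT, 14710 genes) were recovered for the combination against vehicle. For the departure from the sum of both compounds 53% and 66% were recovered, and 25.4% and 37.3% of those with the smallest fold.

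The members and lists were chosen with earlier results of these data known. All members are named; of the other lists, the 3 largest rises and 2 largest falls called with the combination or rosiglitazone, and adipocyte markers, are named, while other genes were chosen after their values were seen. For the pairing, each library's deviations from its group mean were correlated between 3T3-L1 groups. Over the 30 pairs with a shared replicate number r was 0.106 to 0.462 (median 0.300). Every value lay above the cut-off of 0.1, which counts as paired. The median of −0.142 for other pairs is no separate evidence, since the deviations of a group sum to 0. In DFAT this held (0.105 to 0.345) only among magnolol, combination and rosiglitazone. Vehicle gave 0.0747 to 0.193 with dicoumarol, 0.00472 to 0.209 with magnolol, 0.0331 to 0.167 with the combination and −0.306 to 0.0763 with rosiglitazone. Missing the cut-off does not show that the numbers are unrelated. DGAT1 was lowest in replicate 3, and LPIN1 highest in replicate 1, in 5 of 5 DFAT groups. The other DFAT members had no replicate that was lowest or highest in every group. The alternatives were a pseudocount of 5, no filter, no trend, only the groups compared, quantile normalization, the replicate block and leaving out each library.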

Additional observations from a re-analysis of the deposited data

Results flagged for a closer look

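Several differences between the systems passed their own test, each as the log2 fold change against vehicle in 3T3-L1 less that in DFAT. With magnolol they were Gpat3 (1.99) and Lpin1 (0.94). With the combination they were Gpat3 (2.53), Dgat1 (1.28), Lpin1 (0.96) and Gpam (0.39). With rosiglitazone they were Gpat3 (3.84), Dgat1 (2.05), Lpin1 (0.91), Gpam (0.50) and Lpin2 (−0.45). Pig DGAT1 overlaps a more abundant gene on the other strand, and the part of that in the Dgat1 difference was not tested.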

How the results depend on the processing

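Over 2166 refits of single members no called change turned its direction. The sign turned in 82 refits, 76 of them with 1 library left out, all of changes that were not called before or after and were at most 0.25 in size as reported. Of all refits 2069 kept their side of the threshold, 73 lost a call and 24 gained one (18 of these with the replicate block). The number of members called with dicoumarol in 3T3-L1 went from 0 to 4 with the replicate block. With magnolol in 3T3-L1 it went from 5 to 2 without the variance trend and to 0 to 5 when 1 library was left out. With rosiglitazone in DFAT it went from 4 to 2 without the trend and to 2 to 4 when 1 library was left out. In DFAT, where vehicle and the treated libraries missed the cut-off for pairing, the block added AGPAT3 (−0.19, adjusted p = 0.017 against 0.079, limma) to the combination and changed no other call against vehicle. In the paired comparisons it lost no call, and it gained those given with the results above. Under no scaling did the median log2 change over all genes exceed 0.0274 in size. The lack of read counts limits what can be said of Lpin3 in mouse.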
